A study of Mus musculus with 158 samples.

Results

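DNase I hypersensitive sites that recurred across tissues in 1 of 2 mouse F1 hybrids, and that were found in no tissue of the other, were compared between B6x129 and B6xC3H. A site was a run of autosomal hotspots from the 8 sets of these hybrids (liver, kidney, lung and B cells) that overlapped by 1 bp or more. The 8 sets formed 529778 sites, of 714403 in all 20 sets of the series. Of these, 21005 had a hotspot in 2 or more B6x129 tissues and in no B6xC3H tissue, and are called B6x129 sites. Another 993 had a hotspot in 2 or more B6xC3H tissues and in no B6x129 tissue, and are called B6xC3H sites. Their shares of all sites were 3.96% and 0.187%. These counts use the rule itself and carry no test. The comparison addresses how far hotspots differ between hybrids when the tissues serve as repeats.

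Both hybrids were female F1 mice of 8 weeks with a C57BL/6J mother. The father was of the second strain in the hybrid's name, which for B6xC3H was C3H/HeJ, so that each hybrid carries a C57BL/6J copy of every autosome beside a copy of the second strain. Whole liver, both kidneys and all lung lobes were used as tissues, usually pooled from several mice, and B cells were obtained from femoral marrow by depletion of cells with CD43 or Mac-1/CD11b. No treatment was given. B6x129 was represented by 17 DNase-seq libraries and B6xC3H by 27. All libraries of a hybrid and tissue had been pooled before hotspots were called, so that a set has no replicate and the 4 tissues were the repeats of the comparison.

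DNase I cuts DNA where a nucleosome has been displaced by bound transcription factors, and a region with an excess of cuts over its surroundings is called a hotspot. Promoters of active genes and sites bound by CTCF, the factor that anchors chromatin loops, are open in most tissues, whereas distal enhancers are open in few. A site that is open in several tissues is therefore usually a promoter, a CTCF site or an enhancer of a broadly expressed gene. The score of a hotspot is the −log10 of its false discovery rate (FDR), which starts at the 5% threshold of the call and ends at a ceiling of 100. Scores are not on a common scale between sets, and a site without a hotspot is one that did not pass the threshold, which does not show that it was closed.

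The reference sequences of 3 named B6x129 sites and 2 named B6xC3H sites are shown, all among the first 4 of their hybrid, as examples of the members that rank highest by the rule for named sites. Each is the central 200 bp of the site on the plus strand of mm10, which is the C57BL/6J allele that both hybrids share. Capitals mark a match to 1 of the motifs searched or, where there was none, both copies of an exact direct repeat of at least 20 bp, and a sequence with neither is in lower case throughout. The first B6x129 sequence lies at chr17:46715198-46715397, in a site that overlaps an exon and the genes Pex6 and Gm26904. The other B6x129 sequences lie at chr2:4669828-4670027 between genes near Prpf18 and at chr2:158210600-158210799 in an intron of D630003M21Rik. The B6xC3H sites lie at chr9:114743548-114743747 in an intron of Cmtm6 and at chr15:21175342-21175541 in an intron of Cdh12.
Pex6: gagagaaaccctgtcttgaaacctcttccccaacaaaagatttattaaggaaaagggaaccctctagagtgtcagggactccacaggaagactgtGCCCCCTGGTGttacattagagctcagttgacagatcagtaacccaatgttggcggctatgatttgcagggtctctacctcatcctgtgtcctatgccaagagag
Prpf18: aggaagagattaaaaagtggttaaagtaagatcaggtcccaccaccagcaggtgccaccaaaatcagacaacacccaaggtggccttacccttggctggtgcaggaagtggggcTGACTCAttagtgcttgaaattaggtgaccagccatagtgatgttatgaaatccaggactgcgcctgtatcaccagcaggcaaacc
D630003M21Rik: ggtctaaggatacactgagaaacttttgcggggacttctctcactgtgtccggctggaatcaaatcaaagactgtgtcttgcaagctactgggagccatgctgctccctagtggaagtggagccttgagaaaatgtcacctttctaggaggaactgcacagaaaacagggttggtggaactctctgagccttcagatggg
Cmtm6: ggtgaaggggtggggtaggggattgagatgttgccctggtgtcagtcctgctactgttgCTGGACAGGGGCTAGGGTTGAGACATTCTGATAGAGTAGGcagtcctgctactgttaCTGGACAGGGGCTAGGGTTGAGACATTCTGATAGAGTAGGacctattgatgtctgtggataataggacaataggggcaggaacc
Cdh12: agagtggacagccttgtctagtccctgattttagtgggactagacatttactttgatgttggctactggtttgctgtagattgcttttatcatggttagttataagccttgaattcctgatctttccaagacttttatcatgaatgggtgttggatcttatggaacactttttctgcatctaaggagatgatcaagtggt

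The Pex6 sequence holds a short form of the CTCF motif, which lacks the first base of the full one, on its minus strand, and the Prpf18 sequence holds TGANTCA, the motif of the AP-1 factors. The Cmtm6 sequence repeats a stretch of 40 bp exactly, at a spacing of 57 bp. The central sequence of the Cdh12 site lies wholly in sequence that the reference masks as repeats.

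Before sites were compared, the sets themselves were. B6x129 had more hotspots than B6xC3H in every tissue. The B6x129 sets held 286482 (liver), 232440 (kidney), 253858 (lung) and 114072 (B cells) hotspots. The B6xC3H sets held 208852, 197586, 147871 and 76055 in the same order. The ratio was lowest in kidney, at 1.18, and highest in lung, at 1.72. The mean log2 ratio was 0.51 ± 0.23 (SD, n = 4 tissues). In an exact sign-flip permutation test over the 4 tissues the two-sided p was 0.125, the smallest that 4 pairs can give, so that no result over tissues could reach 0.05. Base pairs covered followed the same order of hybrids in 4 of 4 tissues (mean log2 ratio 0.57 ± 0.45 SD, n = 4, exact p = 0.125). In kidney the covered length hardly differed, with 78.2 Mb in B6x129 and 77.2 Mb in B6xC3H, whereas in lung it was 82.1 and 42.7 Mb.

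Depth moved with these numbers in liver, lung and B cells, where it cannot be told apart from the hybrid, and against them in kidney. As the study gives its read totals, the B6x129 pools of liver, lung and B cells held more analysed reads than the B6xC3H pools, and its kidney pool held fewer. B6x129 kidney thus had more hotspots than B6xC3H kidney from fewer reads, 2 libraries and 2 samples, where B6xC3H kidney had 8 libraries and 4 samples. The number of libraries was 8 and 8 in liver, 2 and 5 in lung and 5 and 6 in B cells, for B6x129 and B6xC3H. The share of hotspots at the score ceiling was near equal in liver (13.03 and 13.34%), lower in B6x129 kidney (3.40 against 4.37%), and higher in B6x129 lung (3.34 against 1.22%) and B cells (12.4 against 5.92%).

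**Figure D1:**
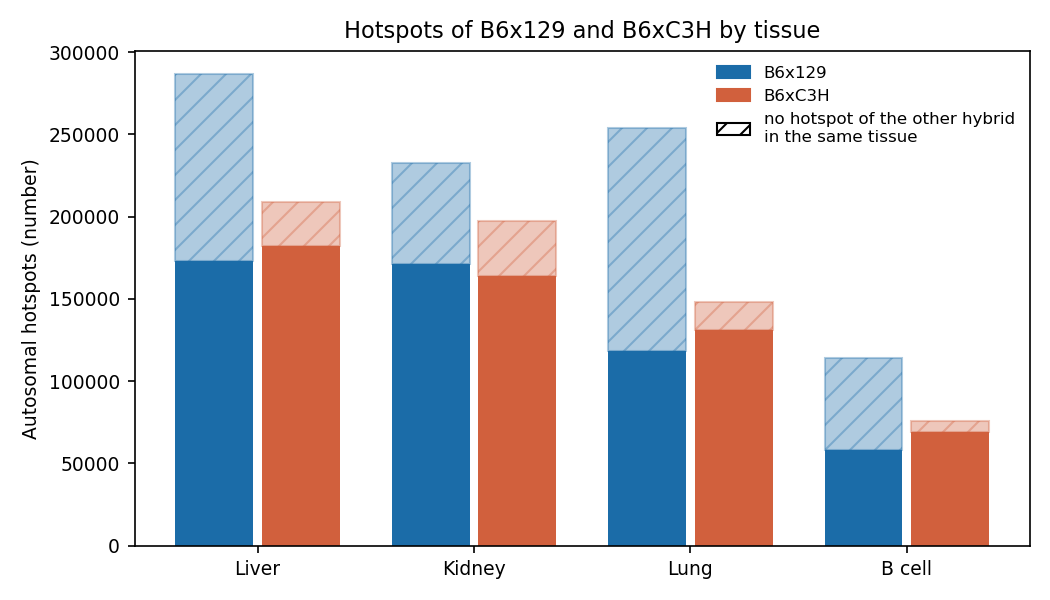
Number of autosomal hotspots of B6x129 and B6xC3H in each tissue, with 1 pooled set per bar. The hatched upper part counts hotspots with no hotspot of the other hybrid in the same tissue, which make up 26.3 to 53.3% of the B6x129 bars and 9.40 to 17.2% of the B6xC3H bars.

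A hotspot of B6x129 lacked a counterpart in B6xC3H more often than the reverse, in 4 of 4 tissues. In lung, 53.3% of B6x129 hotspots had no overlapping hotspot in B6xC3H, and 11.5% of B6xC3H hotspots had none in B6x129. In B cells the shares were 49.1 and 9.40%, in liver 39.6 and 12.9%, and in kidney 26.3 and 17.2%. The difference was 29.4 ± 15.0 percentage points (SD, n = 4; B6x129 higher in 4 of 4 tissues; exact two-sided sign-flip p = 0.125). The unmatched hotspots were weak, with a median score of 2.22 to 2.61 in B6x129 and 1.88 to 2.04 in B6xC3H. When each tissue was restricted to equal numbers of the highest-scoring hotspots, the difference was 6.61 ± 7.03 percentage points (3 of 4 tissues; exact p = 0.25), and in kidney B6xC3H had the larger unmatched share (21.0 against 18.6%). The base-pair Jaccard index, the shared length over the joint length, was 0.468 in lung, 0.502 in B cells, 0.656 in kidney and 0.658 in liver.

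The direction of the recurring sites followed that of the sets, and their ratio fell when the sets were made equal in size. The 21005 B6x129 sites were 21.2 times the 993 B6xC3H sites. With equal numbers of hotspots in each tissue there were 5732 B6x129 and 2128 B6xC3H sites, a ratio of 2.69, and with the 75000 highest-scoring hotspots of every set 1343 and 707, a ratio of 1.90. Of the 21005 B6x129 sites, 5716 (27.2%) were also B6x129 sites at equal numbers. The equal number was that of B6xC3H in every tissue, so that only B6x129 lost hotspots and no B6xC3H site could be lost. The direction was thus kept at every set size tried, and most of the excess was not.

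**Figure D2:**
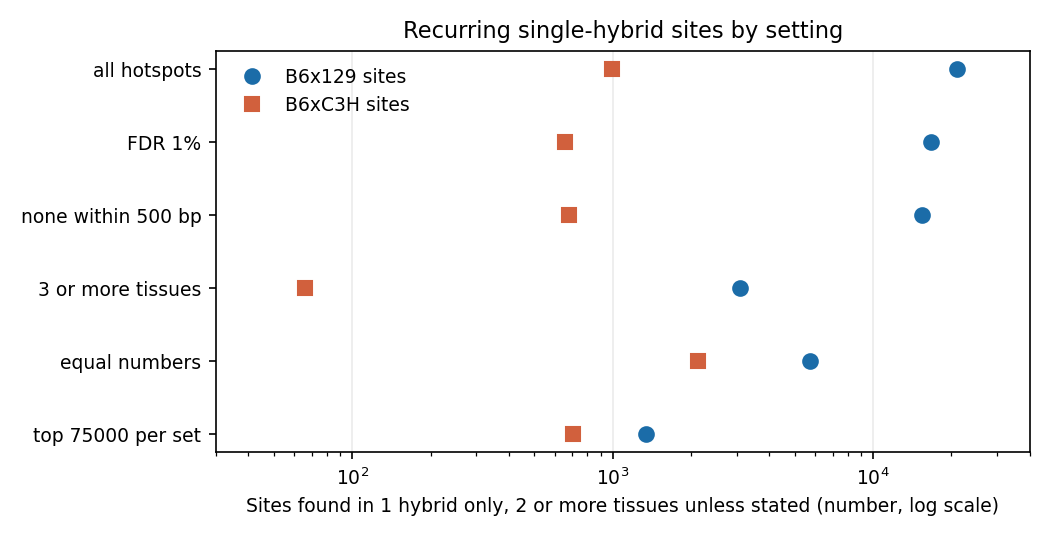
Number of recurring single-hybrid sites (log scale) for B6x129 and B6xC3H under 6 settings. The 2 hybrids lie 21.2-fold apart with all hotspots and 1.90-fold apart with the 75000 highest-scoring hotspots of each set, with B6x129 higher in each setting shown.

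With all hotspots, the excess of B6x129 was larger among sites found in more tissues. Of the B6x129 sites, 17921 were found in exactly 2 tissues, 2822 in 3 and 262 in 4. Of the B6xC3H sites, 927 were found in 2 tissues, 61 in 3 and 5 in 4. The ratio of B6x129 to B6xC3H was 3.10 for sites found in a single tissue of 1 hybrid, 19.3 for 2 tissues, 46.3 for 3 and 52.4 for 4. At equal numbers of hotspots the order was reversed for sites in a single tissue, with 66608 in B6x129 and 75157 in B6xC3H. There were then 5136 and 1999 sites in 2 tissues, 553 and 119 in 3, and 43 and 10 in 4, so that B6x129 kept the larger number only for recurring sites.

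Most members lay close to the calling threshold. The lowest score over a member's own tissues had a median of 2.01 in B6x129 sites and 1.96 in B6xC3H sites, and it was under 2, that is above an FDR of 1%, in 10308 (49.1%) and 525 (52.9%). It reached 10 in 46 B6x129 sites and 6 B6xC3H sites. The median of the best score was 3.77 and 3.16, against 46.8 at the 116959 sites found in 2 or more tissues of both hybrids. Just outside the rule were 47369 sites with 2 or more B6x129 tissues and a hotspot in 1 B6xC3H tissue, whose lone hotspot had a median score of 4.74. The reverse held for 5126 sites, with a median of 7.30. The nearest hotspot of the compared hybrid, in any tissue, lay a median of 1.35 kb from a B6x129 site and 1.21 kb from a B6xC3H site, and lay within 500 bp of 5643 (26.9%) and 312 (31.4%) of them.

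The tissues that shared a site differed between the hybrids. Liver and lung was the commonest pair among B6x129 sites, with 6344 (30.2%), followed by kidney and lung with 3690 (17.6%) and liver and kidney with 3161 (15.0%). Among B6xC3H sites liver and kidney was commonest, with 375 (37.8%), and liver and lung came next with 191 (19.2%). Lung was found in 72.6% of B6x129 sites and 48.9% of B6xC3H sites, and lung was also the tissue with the largest ratio of hotspot numbers. Kidney was found in 44.4 and 56.6%, liver in 68.4 and 71.3%, and B cells in 30.5 and 30.3%. The pair of kidney and B cells was rare in both hybrids, with 411 (1.96%) and 39 (3.93%). This rarity was not particular to members. Among sites with the same pair of tissues in both hybrids, kidney and B cells was also the rarest, with 350. Liver and kidney was the commonest there, with 16757. Of the sites in both hybrids, 84.1% had a liver hotspot in each hybrid. The share was 84.9% for kidney, 68.6% for lung and 37.2% for B cells.

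The other 3 hybrids of the series, which the rule did not use, held a larger share of the B6x129 sites than of the B6xC3H sites. These hybrids are B6xCAST, B6xPWK and B6xSPRET, with CAST/EiJ, PWK/PhJ and SPRET/EiJ fathers. In B cells, 52.4% of the B6x129 sites found there had a B cell hotspot in another hybrid, as a mean over the 3 hybrids, against 9.30% of the B6xC3H sites. In lung the means were 42.4 and 15.1%, in kidney 32.4 and 25.6%, and in liver 23.9 and 13.9%. Over tissues the mean was 37.8% for B6x129 sites and 15.98% for B6xC3H sites, a difference of 21.8 ± 16.8 percentage points (SD, n = 4; higher in 4 of 4 tissues; exact two-sided sign-flip p = 0.125). With B6x129 and B6xC3H at equal numbers of hotspots and the other hybrids left whole, the difference was 23.0 percentage points (exact sign-flip p = 0.125). Sites found in both hybrids had a mean of 93.7%. Within each tissue the B6x129 sites were found least often in B6xSPRET, from 16.3% in liver to 27.1% in lung, and so were the B6xC3H sites and the sites of both hybrids. B6xSPRET also had the fewest hotspots of these 3 hybrids in each tissue. Among all 5 hybrids, B6xC3H had the fewest in lung (147871) and B cells (76055), the tissues with the largest differences. The part of set size in these differences was not tested.

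**Figure D3:**
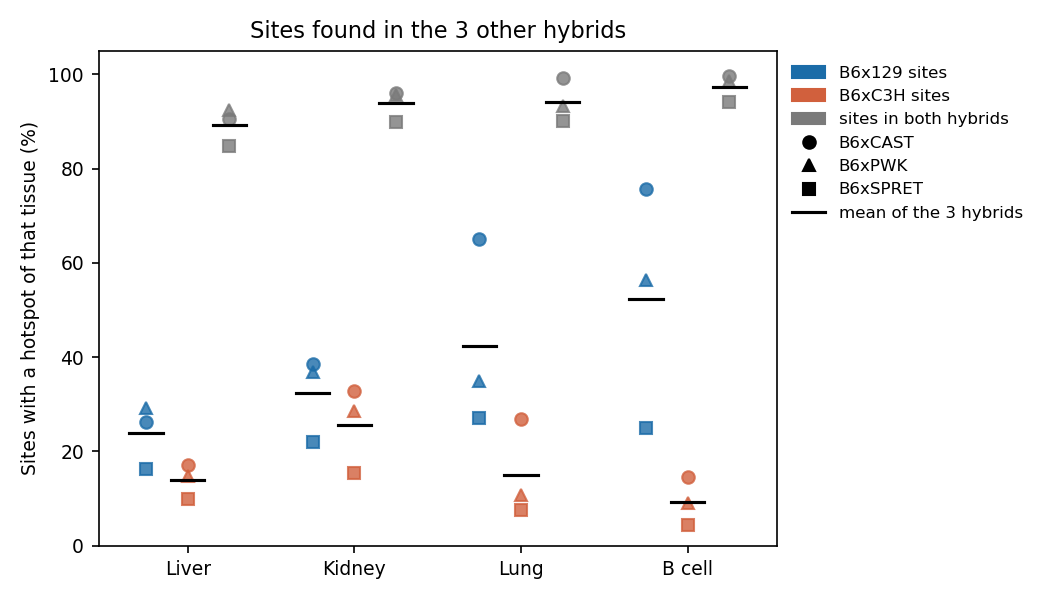
Share of sites (%) with a hotspot of the same tissue in B6xCAST, B6xPWK and B6xSPRET, for B6x129 sites, B6xC3H sites and sites in 2 or more tissues of both, with the mean of the 3 hybrids as a bar. B6x129 sites lie above B6xC3H sites in every tissue, most in B cells (52.4 against 9.30%), and both lie below the sites of both hybrids.

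Counted over any tissue, 6368 B6x129 sites (30.3%, Wilson 95% interval 29.7 to 30.9%) had a hotspot in all 3 other hybrids and 2823 (13.4%, 12.99 to 13.9%) had one in none. Among B6xC3H sites the order was the opposite, with 93 (9.37%, 7.71 to 11.3%) in all 3 and 412 (41.5%, 38.5 to 44.6%) in none. These intervals treat sites as independent and cover counting error only. In all, 1032 B6x129 sites were also open in 2 or more tissues of each other hybrid, and so were recurrent in every hybrid but B6xC3H, and 15 B6xC3H sites were recurrent in every hybrid but B6x129. Among the 668 B6x129 sites with a lowest score of at least 5, 139 (20.8%) were of this kind and 36 (5.39%) were found in no other hybrid. Among the 42 B6xC3H sites of that score, 1 was of this kind and 17 (40.5%) were found in no other hybrid.

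The same rule was applied to all 10 pairs of hybrids to place this pair. These pairs share sets and are given as a description. The larger count was 1.06 to 13.4 times the smaller in the other 9 pairs, against 21.2 here, and B6xC3H against B6xCAST came next, with 1692 and 22696. At equal numbers the ratio was 1.22 to 2.11 in the other 9 pairs, against 2.69. The sum of the 2 counts at equal numbers, 7860, was the lowest of the 10 pairs, where the others had 10191 to 14471. The equal number was that of the smaller set of a pair in each tissue, so it differed between pairs. Its part in these sums and ratios was not tested. With all hotspots the sum was 21998, the fourth highest, and the others had 13298 to 28928.

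For each hybrid 12 sites were named, as those found in most tissues with the highest lowest score. The first B6x129 site, at chr17:46715129-46715466, overlapped an exon and the genes Gm26904 and Pex6, the latter an ATPase needed to import enzymes into peroxisomes. Its B6x129 scores were 35.9 (liver), 21.4 (kidney), 40.0 (lung) and 31.7 (B cells). It had a hotspot in all 12 sets of the other 3 hybrids, with scores from 8.54 to 59.5, and in no B6xC3H set, where the nearest hotspot was 2423 bp away. It overlapped a DNase hotspot and a CTCF hotspot of B6xCAST embryonic stem cells (mESCs). The site was thus open in 16 of 20 sets, and all 4 without it were B6xC3H.

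The second, at chr18:12096800-12097117 in an intron of Tmem241, had scores of 33.8 (liver), 22.5 (kidney), 31.8 (lung) and 16.1 (B cells). Outside B6x129 it was found in all 4 B6xPWK sets and in no B6xCAST or B6xSPRET set, so that the tissues of each of these hybrids were alike. The third, at chr2:4669731-4670124, was intergenic and 17618 bp from a start of Prpf18, a splicing factor. Its scores were 43.0 (liver), 32.1 (kidney), 41.3 (lung) and 15.6 (B cells), and it was found in 10 of the 12 other sets, all 4 of B6xPWK and of B6xSPRET among them.

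The fourth, at chr2:158210540-158210860 in an intron of D630003M21Rik, was found in 11 of the 12 other sets and overlapped both a DNase and a CTCF hotspot of mESCs. Its nearest B6xC3H hotspot was only 164 bp away. The sixth, at chr13:13655524-13655811 in an intron of Lyst, the lysosomal trafficking regulator whose loss gives the beige coat, was also found in 11. Its B6x129 scores were 17.8 (liver), 6.41 (kidney), 8.34 (lung) and 24.7 (B cells), and no B6xC3H hotspot lay within 6554 bp.

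The seventh, at chr2:40127693-40128009, spanned a start of the gene Gm13453, and Lrp1b, an LDL receptor relative, was the nearest coding gene at 487242 bp. It was found in 10 other sets. The eighth, at chr10:99599227-99599590, was 160068 bp from a start of Csl, a citrate synthase homologue, and was found in 8. The tenth, at chr6:50640280-50640723, was intergenic near Npvf, a neuropeptide precursor, was found in 9 and overlapped a DNase and a CTCF hotspot of mESCs. Neither of these last 2 sites overlapped a gene.

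The eleventh, at chr19:28878410-28878761 in an intron of the glutamate transporter gene Slc1a1, was the named B6x129 site with the fewest other sets. Its B6x129 scores were 38.2 (liver), 5.19 (kidney), 18.9 (lung) and 23.7 (B cells), and it was found outside in 3 B6xCAST sets with scores of 1.63 to 2.61. The fifth site, at chr14:4855956-4856050, lay 380 bp from a start of Gm3264, a predicted gene of a family of near-identical copies on proximal chromosome 14. Whether its reads belong to another copy was not tested. The ninth, near 5730522E02Rik, and the twelfth, near Zfp236, were found in 5 and 10 other sets. Of the 12 named B6x129 sites, all were found in at least 1 other hybrid, in 3 to 12 of the other sets.

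**Figure D4:**
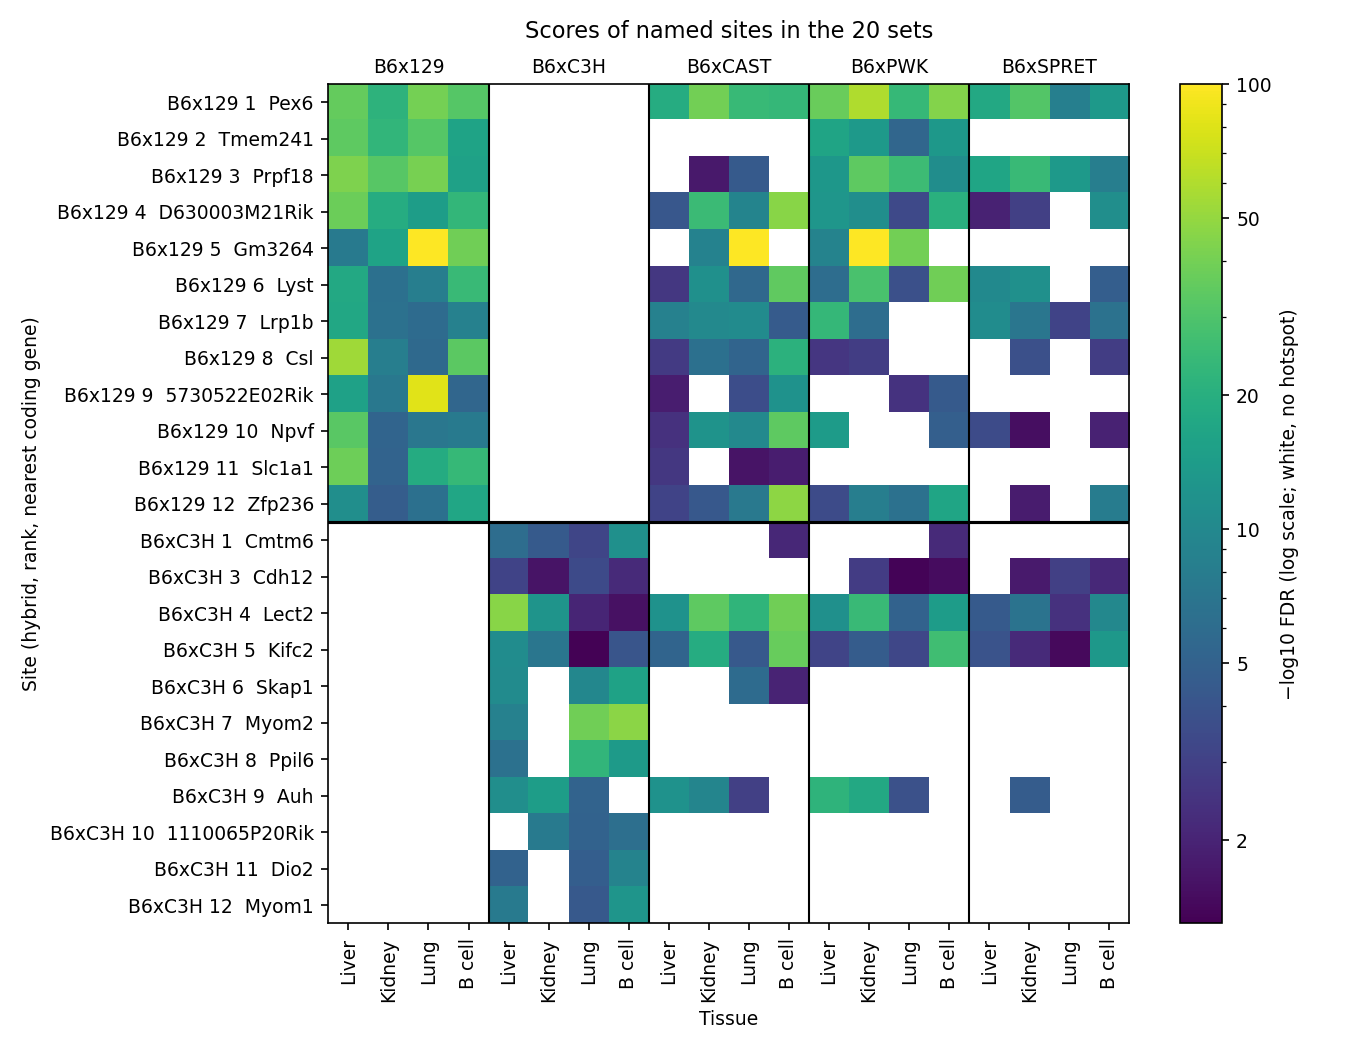
Scores (−log10 FDR, colour on a log scale) of the named sites (all but 1, rows, by hybrid, rank and nearest coding gene) in the 20 sets (columns, 4 tissues for each hybrid), with white where there was no hotspot. The white blocks in the first 2 hybrids are fixed by the rule, whereas the columns of B6xCAST, B6xPWK and B6xSPRET are filled for most B6x129 sites and empty for the B6xC3H sites near Myom2, Ppil6, 1110065P20Rik, Dio2 and Myom1.

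The named B6xC3H sites ranged from sites found in every other hybrid to sites found in none. The fourth, at chr13:56539892-56540202 and 8207 bp from a start of Lect2, a chemotactic protein secreted by the liver, had B6xC3H scores of 45.9 (liver), 12.2 (kidney), 2.03 (lung) and 1.59 (B cells). It had a hotspot in all 12 sets of the other 3 hybrids, from 2.40 to 39.3, and overlapped a CTCF hotspot of mESCs. The fifth, at chr15:76666474-76666774 in an exon of Kifc2, a kinesin motor, was also found in all 12, and overlapped a DNase and a CTCF hotspot of mESCs. These 2 sites were missing from the 4 B6x129 sets alone.

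Of the named B6xC3H sites, 5 had no hotspot in the 4 tissues of any other hybrid. The nearest B6x129 hotspot lay 6689 bp away at Myom2, 426 bp at Ppil6, 126 bp at 1110065P20Rik, 1553 bp at Dio2 and 683 bp at Myom1. The sites near Ppil6 and 1110065P20Rik were thus lost when hotspots within 500 bp counted. The site at chr8:15117173-15117423, in an intron of Myom2, a muscle M-band protein, had scores of 8.72 in liver, 38.7 in lung and 46.8 in B cells and no hotspot in any of the other 17 sets. The site at chr10:41504840-41505068, in an intron of Ppil6, a cyclophilin, had 6.53 in liver, 22.8 in lung and 13.97 in B cells and was likewise found in 3 of 20 sets. Their central 200 bp had a GC content of 72.5 and 65%, and 97.5 and 76% of these bases were masked as repeats. A further 3 sites were found in these tissues of no other hybrid. They lay at chr4:124843969-124844171 in an exon of Mtf1, a metal-responsive factor, with 1110065P20Rik as the gene of the nearest start and an overlapping CTCF hotspot of B6xCAST mESCs, at chr12:90328527-90328728 in an intron of Nrxn3, with Dio2 as the gene of the nearest coding start, and at chr17:71142543-71142743 near Myom1.

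Further named B6xC3H sites were found in 2 to 7 other sets. The first, at chr9:114743514-114743782 in an intron of Cmtm6, a regulator of the membrane protein PD-L1, had scores of 6.15 (liver), 4.44 (kidney), 3.20 (lung) and 11.4 (B cells), and had weak hotspots in B cells of B6xCAST (2.12) and B6xPWK (2.17). The third, in Cdh12, was found in 6, and the sixth, in an intron of the T cell adaptor gene Skap1, in 2. The ninth, near Auh, was found in 7 other sets and lacked a B cell hotspot in every hybrid. A B6x129 hotspot lay within 500 bp of 6 of the 12 named B6xC3H sites, 74 bp away at Cmtm6 and 175 bp away at Kifc2, and a B6xC3H hotspot within 500 bp of 4 of the 12 named B6x129 sites. Kidney was the tissue without a hotspot in 5 of the 7 named B6xC3H sites found in 3 tissues.

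In position, members lay farther from genes than the sites of both hybrids. A gene start lay within 1 kb of 2558 B6x129 sites (12.2%) and 80 B6xC3H sites (8.06%), against 26145 (22.4%) of the sites in both hybrids. Intergenic sites made up 35.8, 46.4 and 30.5%, and the median distance to a start of a coding gene was 18.4, 33.4 and 12.3 kb. Members were also narrower, with a median width of 232 bp for B6x129 and 201 bp for B6xC3H sites, against 618 bp. Distances were measured from the edges of a site, and the part of width in them was not tested. Sites found in only 1 tissue of 1 hybrid had 8.91 and 7.22% within 1 kb of a start, in B6x129 and B6xC3H.

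Overlap with mESC chromatin followed the same order. A DNase hotspot of B6xCAST mESCs overlapped 2036 B6x129 sites (9.69%) and 39 B6xC3H sites (3.93%), against 43957 (37.6%) of the sites in both. A CTCF ChIP-seq hotspot overlapped 1940 (9.24%) and 58 (5.84%), against 35003 (29.9%). Among the 93 B6xC3H sites found in all 3 other hybrids the CTCF share was 16.1% (Wilson 95% interval 10.0 to 24.9%), and among the 412 found in none it was 4.37% (2.78 to 6.80%). Among B6x129 sites the 2 shares lay closer, at 7.66 and 8.43%. The widths of the sites, given above, differ between the groups, and their part in these shares was not tested.

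B6xC3H sites lay in repeats more often. Soft-masked bases outnumbered the others in the central 200 bp of 34.4% of B6xC3H sites, 12.2% of B6x129 sites and 6.01% of the sites in both hybrids. The share was 39.3% among B6xC3H sites found in no other hybrid and 17.2% among those in all 3, and 21.3 and 7.52% among B6x129 sites. At equal numbers of hotspots the share was 25.6% for B6xC3H and 12.4% for B6x129 sites. No CpG was present in the central 200 bp of 29.9% of B6xC3H, 15.4% of B6x129 and 11.8% of the shared sites, whereas mean GC content was alike (47.3, 48.0 and 49.8%).

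**Figure D5:**
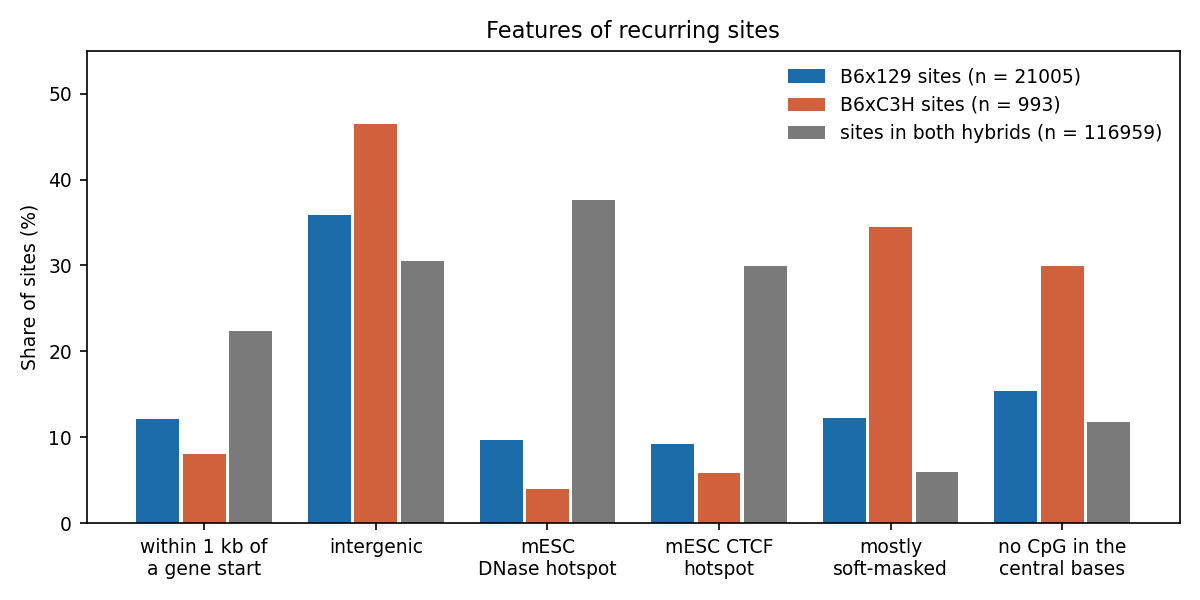
Share of sites (%) with each of 6 features, for B6x129 sites, B6xC3H sites and sites in 2 or more tissues of both hybrids, with bars from 0. B6xC3H sites have the highest share mostly soft-masked (34.4%) and the lowest shares near a gene start (8.06%) and in mESC DNase hotspots (3.93%).

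Motifs were searched on both strands of the central 200 bp, and a match is a description of the letters only. TGANTCA (AP-1) was present in 9.81% of B6x129 sites, 5.84% of B6xC3H sites and 7.49% of sites in both hybrids. TTGCNNAA (CEBP) was present in 11.3, 6.65 and 10.2%, and TGTGGTT (RUNX) in 6.96, 4.03 and 5.23%. These 3 motifs were thus commonest in B6x129 sites. The CTCF motif was present in 0.457, 0.201 and 1.59%, and its short form in 0.724, 0.403 and 2.21%. GGGGCGGGG (SP/KLF), common in promoters, was present in 1.29, 3.02 and 2.02%, and CCGGAAG (ETS) in 1.61, 1.11 and 2.27%. TGTTTAC (FOX) was present in 3.75, 2.82 and 3.82%, CAAAGTCCA (HNF4) in 0.486, 0.302 and 0.910%, the HNF1 motif in 0.0190, 0.201 and 0.123%, and the NFI motif in 0.300, 0.604 and 0.179%. Shares below 1% rest on few matches among the 993 B6xC3H sites. The median width was 232 bp for B6x129, 201 bp for B6xC3H and 618 bp for the sites in both hybrids. The central 200 bp thus cover a smaller part of the sites in both hybrids. The part of width in the motif, soft-masked and CpG shares was not tested.

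Members were spread over the genome. Among sites found in 2 or more tissues of either hybrid, 10.97% were B6x129 sites and 0.519% were B6xC3H sites, with a range over the 19 autosomes of 10.0 to 11.8% and 0.383 to 0.682%. A further B6x129 site lay within 10 kb of 5833 (27.8%) of them, and a further B6xC3H site within 10 kb of 40 (4.03%). For the 116959 sites in both hybrids this share was 78.6%. The groups differ in their number of sites, and the part of number in these shares was not tested. Of 1987 windows of 1 Mb with at least 20 recurring sites, the median share of B6x129 sites was 10.8%. The window with the highest share was chr14:4000001-5000000, with 14 of 21 recurring sites (66.7%), and chr14:3000001-4000000, next to it, had 8 of 20 (40%). Both hold the family of near-identical predicted genes to which Gm3264 belongs, where reads of 1 copy may be placed in another. The authors kept only reads that mapped uniquely, and misplacement was not tested. In chr8:53000001-54000000, with Aga, Neil3 and Vegfc as nearest genes, 9 of 22 sites (40.9%) were B6x129 sites. For B6xC3H sites the highest share in a window was 12.5%.

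Members were spread over many genes. Coding gene starts nearest to B6x129 sites belonged to 8938 genes, 4286 of them with a single site. Zeb2, a repressor active in epithelial to mesenchymal transition, had 26 B6x129 sites of 110 recurring sites (23.6%), Foxp1, a forkhead factor of B cell development, 23 of 136 (16.9%), and Cited2, a transcriptional coregulator, 21 of 133 (15.8%). The activin receptor gene Acvr2a had 18 of 81 (22.2%) and the ephrin gene Efna5 18 of 69 (26.1%). Each share lies above the 10.97% of all recurring sites, as choice by the largest number favours.

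B6xC3H sites were nearest to 873 genes, 780 of them with a single site. Sfi1, a centrosomal gene, had 5 B6xC3H sites of 7 recurring sites (71.4%), all 16.1 to 22.2 kb from its nearest start. Efnb2, an ephrin, had 4 of 41, Lrig3 had 4 of 50, Magi1, a junction scaffold, had 4 of 110, and Acnat2, a peroxisomal acyltransferase, had 3 of 19. The B6xC3H sites near Efnb2 lay far off, at 585 to 1551 kb.

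Gene lists were described by the nearest coding gene, as a share of members beside the share of the sites in both hybrids. Vomeronasal and olfactory receptor genes, which lie in clustered, little-used chromatin, were nearest to 134 B6x129 sites (0.638%) and 18 B6xC3H sites (1.81%), against 0.368% of the sites in both. Genes named Zfp, Zkscan or Zscan, most of them zinc finger repressors, were nearest to 298 (1.42%) and 20 (2.01%), against 1.52%. Cytochrome P450 genes, the main enzymes of drug oxidation, were nearest to 46 (0.219%) and 2 (0.201%), against 0.288%. Cyp26b1, which clears retinoic acid, had 8 B6x129 sites, and the xenobiotic-induced gene Cyp2b10 had 1 site of each kind.

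Immune gene families known for strain differences were nearest to at most 12 B6x129 sites and 1 B6xC3H site each. MHC genes (H2-) were nearest to 12 B6x129 sites (0.0571%, against 0.0795% of the sites in both) and no B6xC3H site. The Ly49 receptors of NK cells were nearest to 7 (0.0333%, against 0.00342%) and 1. Naip and Nlrp1 genes were nearest to 7 (0.0333%, against 0.0137%) and 1, and the p200 interferon-inducible family to 11 (0.0524%, against 0.0265%) and 0. In these 3 families the share of B6x129 sites was thus above that of the sites in both. The Nkrp1 and Clec2 family was nearest to 10 (0.0476%, against 0.0539%) and 0, guanylate-binding proteins to 5 (0.0238%, against 0.0376%) and 0, and Schlafen genes to 2 (0.00952%, against 0.0214%) and 0. Within the p200 family, the DNA sensor gene Aim2 had 5 B6x129 sites. For Ly49 genes only 4 sites were found in both hybrids, fewer than the 7 B6x129 sites.

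Among the other lists, UDP-glucuronosyltransferase genes were nearest to 11 B6x129 sites (0.0524%, against 0.0573% of the sites in both) and glutathione S-transferase genes to 8 (0.0381%, against 0.0727%), with no B6xC3H site. Serpin clade A genes were nearest to 2 B6x129 sites (0.00952%, against 0.0504%) and major urinary protein genes to 3 (0.0143%, against 0.0274%), with 1 B6xC3H site each. Genes with known differences among laboratory strains were nearest to 18 (0.0857%, against 0.0701%) and 2, led by Ahr, the dioxin receptor, with 7 B6x129 sites. Tlr4, the endotoxin receptor gene that carries the defect of C3H/HeJ mice, had 3 B6x129 sites and 1 B6xC3H site beside 10 sites found in both. Housekeeping genes were nearest to 9 (0.0428%, against 0.0487%) and 0. The immunoglobulin list matched a single coding gene, Ighmbp2, which is not an immunoglobulin gene, so that this list says nothing.

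The tissues carried their markers in both hybrids. A hotspot lay within 1 kb of a start of all 6 liver markers in both liver sets, and the same held for the 6 kidney, 6 lung and 6 B cell markers in their own sets. Markers of T and B cells were open more often in B6x129 liver and lung, where B6x129 also had more hotspots than B6xC3H. A hotspot lay at 2 of 3 T cell markers (Cd3e, Cd3g, Cd8a) in B6x129 liver and 3 of 3 in B6x129 lung, and at 0 of 3 in B6xC3H liver and lung, while in kidney 1 was open in both hybrids. Of 6 B cell markers, 5 were open in liver and 6 in lung of B6x129, and 3 and 4 in B6xC3H. Of 3 granulocyte markers, 2 and 1 were open in kidney and 2 and 1 in lung, and none in B cells of either hybrid. Macrophage markers were open at 3 and 2 of 3 in liver and in lung, but at 1 and 2 in B cells, and of 6 lung markers 2 and 3 were open in liver. Of 6 kidney markers 2 and 0 were open in lung, and of 6 lung markers 2 and 0 in kidney. Of 6 liver markers 3 and 3 were open in kidney and 2 and 2 in lung. The share of all gene starts with a hotspot was not computed for each set. Endothelial markers were open alike, at 3 of 3 in liver, kidney and lung and 2 of 3 in B cells, and of the erythroid markers Hbb-bt was open in none of the 8 sets. The part of blood cells in the B6x129 sites of liver and lung was not tested, and more cells of a type cannot be told apart from more reads in a pooled tissue.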

How the data were processed

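DNase-seq hotspots of 2 F1 hybrids in 4 tissues were compared, beside those of 3 other hybrids and of mESCs. The authors mapped reads to mm10 with BWA, combined the libraries of each hybrid and tissue and ran hotspot2 at FDR 5%. The deposited files give, per hotspot, the position and the −log10 FDR, with no normalization between sets, so the score was used only to rank and filter within a set. No read counts are in these files. The score ceiling and the number of hotspots were the measures of precision.

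Autosomal hotspots overlapping by 1 bp were merged into sites. Gene starts, exons and introns are from GENCODE vM21, and sequence and soft-masking from GRCm38.p6, the build of mm10. Matched tissues were compared by exact two-sided sign-flip permutation tests (n = 4, smallest p = 0.125). The smallest with 3 tissues is 0.25. Named were the 12 sites per hybrid found in most tissues, then by their lowest score, and the 5 coding genes nearest to most members. Members, gene lists and tests were chosen with earlier results of these data known. The CTCF short form and the soft-masked alternatives were added after the data were examined. Interval functions and the test were tested on simulated data. RNA-seq, which holds no B6x129 sample, and chromosome X were not used, and 1 named site is not reported here. Python 3.11.15, numpy 2.4.6, scipy 1.17.1 and matplotlib 3.10.9 were used. Alternatives were FDR 1%, equal numbers, the 75000 highest-scoring hotspots, other merging, absence, overlap and recurrence rules, and leaving out each tissue.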

Additional observations from a re-analysis of the deposited data

Results flagged for a closer look

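In 2 named B6x129 sites, 1 tissue stood apart from the other 3 in its score, by a gap that exceeds Dixon's critical value. The site near 5730522E02Rik scored 82.0 in lung and 5.49 to 15.6 in the other tissues. The site near Npvf scored 33.2 in liver and 5.29 to 7.84 in the other tissues. Of 28 groups tested, 2 were found. Scores are not on a common scale between sets, and these sites were chosen by their lowest score. The usual chance rate of about 1 in 20 therefore does not apply to them, and no conclusion is drawn.

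At equal numbers of hotspots, kidney went against the other tissues in the unmatched share, with B6x129 minus B6xC3H at -2.44 percentage points, where liver was at 5.64, lung at 8.82 and B cells at 14.4. This difference between tissues was not tested.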

How the results depend on the processing

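The counts moved most with set size and with the number of tissues required. B6x129 and B6xC3H sites numbered 5732 and 2128 at equal numbers (ratio 2.69), 1343 and 707 with the 75000 highest-scoring hotspots (ratio 1.90), and 3084 and 66 in 3 or more tissues (ratio 46.7). At FDR 1% there were 655 B6xC3H sites and 16643 B6x129 sites. Leaving out 1 tissue gave 10387 to 19102 B6x129 sites, 485 to 876 B6xC3H sites and ratios of 15.3 to 39.4. Lung carried most B6x129 sites (10387 without it), liver came next (13954 without it), and B6xC3H sites fell to 486 without liver and 485 without kidney, where the ratio was 39.4. Shares within 1 kb of a gene start became 19.97 and 14.6% within 2 kb, by construction.

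All 4 results over tissues kept their direction in each alternative run, with leave-one-out ranges of 0.43 to 0.61 and 0.44 to 0.75 for the log2 ratios of number and base pairs, and of 25.2 to 36.1 and 14.3 to 29.1 percentage points for the unmatched share and the share in other hybrids. In 3 or more tissues the kidney share in other hybrids was 36.1% for B6x129 and 43.4% for the 33 B6xC3H sites. All 12 named B6x129 sites stayed members at equal numbers, where B6xC3H sites could not be lost, and 14 of the 24 named sites when hotspots within 500 bp counted. The soft-masked share of B6xC3H sites was 26.6% without lung and 49.5% without kidney. No paired analysis by replicate was possible because the libraries were pooled; tissue was the pair throughout.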
